A study of Homo sapiens with 13 samples.

Results

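The comparison asked what a 12 h pulse of 4-thiouridine (4sU) did to the total RNA of K562 cells, an established human line from a chronic myeloid leukaemia with a BCR-ABL1 fusion and fetal globin expression. Its members were the human protein-coding genes that passed a count filter, 11509 of the 19443 coding genes and of 59204 genes in all, with annotated pseudogenes left out. The treated group was 2 libraries of cells that received 30 µM 4sU for 12 h in medium renewed every 3 h, were washed, and were harvested at 0 h of the chase with 3 mM uridine. The other group was 1 library of K562 cells that received no 4sU. The remaining 10 libraries, harvested after 1, 2, 4, 8 or 12 h of chase, gave the spread between replicates, and some are used below to follow or sort the same genes. No label states that replicates came from separate cultures. The p-values thus rest on a spread between libraries that may be technical. The labels also do not say whether the cells without 4sU had their medium renewed and were washed. So 4sU, medium renewal, washing and any difference in the preparation of the single untreated library cannot be told apart here.

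4sU is a uridine analogue that enters cells through nucleoside transporters, is phosphorylated by uridine-cytidine kinase and is built into new RNA in place of uridine. In SLAM-seq the thiol group is alkylated with iodoacetamide, so that reverse transcription reads the modified base as C and new RNA can be told from old. At high doses or long exposure 4sU is known to disturb ribosomal RNA production and to slow cell growth. K562 cells resemble early erythroid cells and are known to lack working p53.

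The library without 4sU held 17425584 counts and the 2 of 0 h held 10064385 and 9004529. Labelled reads, those that the authors call nascent, were 0.00633% of the counts without 4sU (95% Wilson interval 0.00597 to 0.00671%) and 35.9 and 36.1% at 0 h. Per count of the Drosophila S2 spike-in, added to the RNA at 5%, the library without 4sU held 9.68 human counts, and those of 0 h held 13 each. Annotated pseudogenes took 7.54% of the counts without 4sU and 10.4 and 10.7% at 0 h, and mitochondrial tRNAs took 1.30% against 4.31 and 4.8%. The make-up of the Drosophila RNA, which was added to the purified RNA after the treatment, also differed. On the first principal component of its 648 abundant genes (66.3% of their variance) the library without 4sU scored 2.22 and those of 0 h scored −3.49 and −3.75. This composition and the 4sU pulse cannot be told apart in these 3 libraries. A fit with the side of that component as a factor estimates it from the libraries of 4 h alone, the only time with a library on each side. Erythroid markers defined the cells in all 3 libraries: erythroid genes summed to 7403 CPM without 4sU and 17160 and 16000 CPM at 0 h. The marker sums of this paragraph are counts per 1000000 of all human counts, without TMM scaling. In later paragraphs CPM, unless called raw, means counts per 1000000 of the TMM-scaled library. Of the 17 megakaryocyte markers 8 were at 0 in all 3 libraries, and the list summed to 15.3 CPM without 4sU and 18.2 and 13.8 CPM at 0 h. Granulocyte and monocyte markers (4 of 22 at 0, CSF1R among them) summed to 54.8, 25.4 and 25.4 CPM, and lymphocyte markers (8 of 22 at 0, MS4A1 among them) to 43.0, 27.4 and 24.7 CPM. The part of these other cell types in the results was not tested.

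Most coding genes differed between the 2 conditions, and in both directions. Of 11509 genes, 3143 (27.3%) were higher at 0 h and 4640 (40.3%) were lower, which together made 67.6% (edgeR quasi-likelihood test, Benjamini-Hochberg false discovery rate 0.05). Changes of at least 2-fold, a size chosen after the values were seen, were found upward in 1546 genes (13.4%) and downward in 2568 (22.3%). The median log2 fold change was −0.19. With spike-in totals as library sizes the median moved to 0.29, and 4761 genes (41.4%) were higher and 2663 (23.1%) lower (64.5% in all), so calls toward higher made up 64.1% in place of 40.4%. Fold changes below are relative to the library's coding and non-coding RNA as a whole (TMM scaling), and list counts under spike-in sizes follow in brackets. Every list count below is to be read beside the shares of all coding genes, 27.3% higher and 40.3% lower (41.4% and 23.1% with spike-in sizes). Adding that side as a factor left 2449 genes (21.3%) higher and 3617 (31.4%) lower. Since 1 library stands for the untreated cells, its spread was taken from the chase libraries and no difference has a replicate check on that side. Among 4746 non-coding genes and pseudogenes in the same test 48.6% were higher and 11.2% lower, and among the 2267 pseudogenes 67.5% were higher and 5.29% lower. In bulk RNA, fewer cells of a type and less RNA per cell cannot be told apart.

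**Figure D1:**
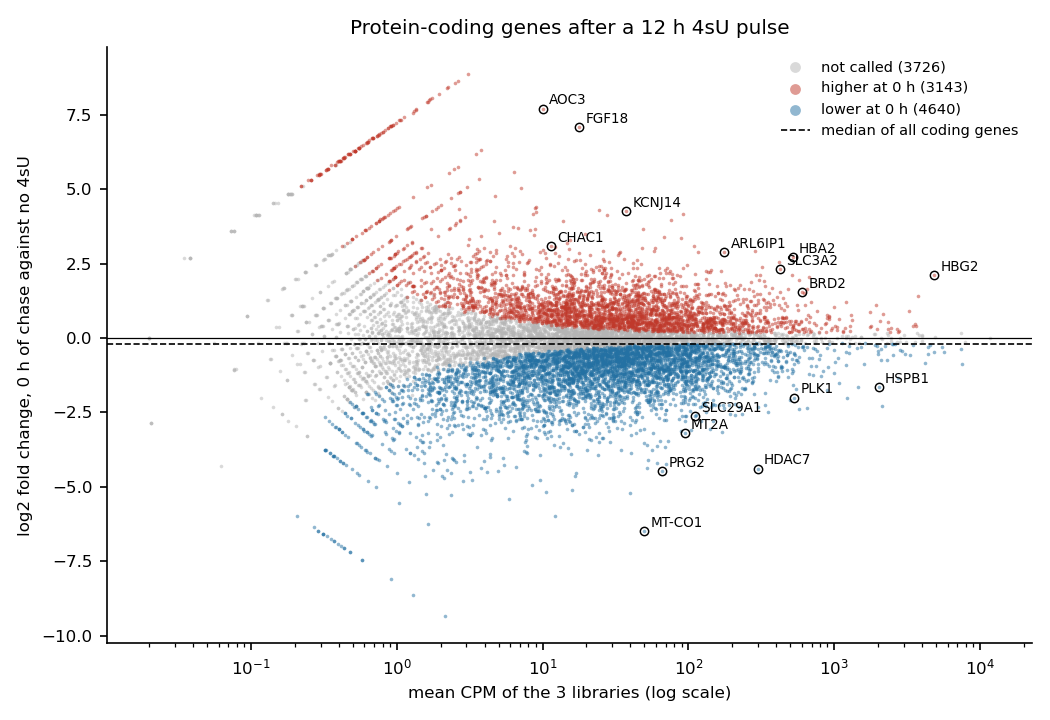
Each point is a protein-coding gene, with its mean CPM over the library without 4sU and the 2 of 0 h on a log scale and its log2 fold change on the vertical axis. Red points (3143) were higher and blue points (4640) lower at 0 h, grey points did not pass the test, and the dashed line is the median of −0.19; lines of points at the left are genes with few counts.

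As a measure that uses no labelled reads, the unlabelled counts of 0 h were also set against the library without 4sU. Of the 3143 higher genes, 951 (30.3%) were above it in both libraries by their unlabelled counts alone, and of the 1546 that rose at least 2-fold, 743 (48.1%) were. Over all 11509 genes it was 1096 (9.52%), and among the 4640 lower genes it was 0, as the call itself requires. The higher genes were chosen by totals that include these unlabelled counts, against the same library. Their larger shares thus follow in part from that choice, here and in the lists below. For the other higher genes the labelled counts were needed to exceed the library without 4sU. The median higher gene was 63.0 and 63.8% labelled at 0 h and the median lower gene 53.2 and 52.9%. The rule by which reads were called nascent is not given in the sources used here, and new RNA whose reads carried too few conversions counts as unlabelled.

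Of the 12 genes with the steepest rise several had few counts without 4sU. FGF18, a fibroblast growth factor, had 3 counts without 4sU and 262 and 228 at 0 h, or 0.186 CPM without 4sU and 27.4 and 26.0 at 0 h (ratio 144, 95% exact counting interval 48.9 to 699.9; edgeR adjusted p = 6.84e-15). AOC3, a vascular amine oxidase, had 1 count against 139 and 137 (ratio 243, interval 43.3 to 9635), and its neighbour and relative AOC2 had 10 against 127 and 111. CCDC13, a centriolar satellite protein, had 3 counts against 95 and 78 (ratio 50.8, interval 17.1 to 248.7). FGF18 had left by 8 h of chase (0.884 CPM ± 0.260, SD, n = 2), whereas AOC3 still read 8.72 CPM ± 0.791 then.

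Better counted without 4sU were KCNJ14, an inward rectifier potassium channel, BDP1, a subunit of the RNA polymerase III factor TFIIIB, and ATP6V1FNB, which read 2.29 CPM without 4sU and 37.5 and 43.2 at 0 h. KCNJ14 (chromosome 19, 48455509 to 48466980, hg38) read 2.85 CPM without 4sU and 52.7 and 56.4 at 0 h, a difference of 19.1-fold (log2 fold change 4.25, SE 0.170, edgeR adjusted p = 1.33e-17). BDP1 read 1.80 CPM without 4sU and 31.7 and 39.6 at 0 h (log2 fold change 4.30, SE 0.236, edgeR adjusted p = 9.03e-15). CRTC2, a CREB coactivator, read 0.681 CPM without 4sU and 13.3 and 12.9 at 0 h. AVIL (advillin, an actin-binding protein) read 0.310 CPM without 4sU and 9.72 and 11.3 at 0 h, and the zinc finger gene ZNF426 read 0.681 CPM without 4sU and 12.8 and 12.1 at 0 h. In each of them the 2 libraries of 0 h lay close together. The choice of genes required both to be above the untreated library. PPAN-P2RY11, an annotated read-through of PPAN and P2RY11, read 7.43 CPM without 4sU and 136 and 133 at 0 h (log2 fold change 4.18, SE 0.131, edgeR adjusted p = 1.5e-19), while PPAN, a ribosome biogenesis factor on the same strand, fell by 1.61 on the log2 scale. For NPIPB5, a member of a family of near-identical copies, 0.619 CPM without 4sU and 12.5 and 13.9 at 0 h were counted, and with the side as a factor its log2 fold change went from 4.39 to 2.04. Of these 12 genes 7 overlap another annotated gene, KCNJ14, NPIPB5 and PPAN-P2RY11 on their own strand, and whether the counting used strand is not given in the sources used here.

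The steepest falls were found in genes of unlike function. HDAC7, a class IIa histone deacetylase, was the most abundant of them: 820.5 CPM without 4sU and 37.4 and 41.2 at 0 h (log2 fold change −4.38, SE 0.0966, edgeR adjusted p = 1.24e-22), a level 20.9-fold lower that no alternative turned. PRG2, the major basic protein of eosinophil granules, read 182 CPM without 4sU and 8.88 and 7.54 at 0 h (log2 fold change −4.46, SE 0.150, edgeR adjusted p = 4.88e-19), and the calcium-binding protein S100P read 47.0 CPM without 4sU and 1.99 and 2.06 at 0 h. ADAMTS14, a secreted procollagen protease, read 114 CPM without 4sU and 3.76 and 2.4 at 0 h (log2 fold change −5.19, SE 0.190, edgeR adjusted p = 1.85e-18). GRB7, an adaptor of receptor tyrosine kinases, had 272 counts without 4sU and 1 and 6 at 0 h. UNC5B, a netrin receptor, read 45.1 CPM without 4sU and 1.78 and 0.799 at 0 h. NAV1, a microtubule-associated protein, read 29.8 CPM without 4sU and 0.836 and 0.799 at 0 h. ARAP3, a GTPase-activating protein, read 46.1 CPM without 4sU and 1.36 and 2.4 at 0 h. PAQR8, a membrane progesterone receptor, read 23.7 CPM without 4sU and 0.522 and 1.03 at 0 h. ATG16L2, a relative of an autophagy factor, read 26.9 CPM without 4sU and 1.15 and 0.799 at 0 h. Of the 12 genes with the largest falls 7 also overlap another annotated gene, HDAC7, PRG2, PAQR8 and NAV1 on their own strand. These genes were chosen with both libraries of 0 h below the untreated library. They differed after the pulse: after 12 h of chase HDAC7 was at 321.9 CPM ± 24.9 (SD, n = 2), but PRG2 was at 5.20 ± 0.0107.

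MT-CO1, a subunit of cytochrome oxidase encoded in mitochondrial DNA, had the largest fall among genes with a mean of at least 5 CPM (146 CPM without 4sU and 1.88 and 1.37 at 0 h), but its counts cannot be read alone. MTCO1P12, a nuclear pseudogene copy of it, read 831 CPM without 4sU and 1578 and 1637 CPM at 0 h, and with pseudogene counts added to their parent genes MT-CO1 was higher by 0.79 (log2), not lower. The same held in part for MT-ND2 (10794 CPM without 4sU and 5730.4 and 5940 at 0 h), whose fall of 0.89 shrank to −0.06 (edgeR adjusted p = 0.469).

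Among genes of the integrated stress response more were higher than lower. This pathway is run by ATF4, a transcription factor translated when eIF2 is phosphorylated, which drives amino acid uptake and synthesis. Of 37 stress response genes tested, 25 were higher and 6 lower, with a median log2 fold change of 0.50 (spike-in sizes: 29 higher, 3 lower, median 0.98). ATF4 itself read 354 CPM without 4sU and 771 and 759 at 0 h (log2 fold change 1.11, SE 0.0882, edgeR adjusted p = 1.61e-11). SLC3A2 and SLC7A11, the 2 chains of the cystine-glutamate exchanger, both rose: SLC3A2 read 117 CPM without 4sU and 579 and 583 at 0 h (log2 fold change 2.31, SE 0.0849, edgeR adjusted p = 2.03e-18). SLC7A11 read 19.1 CPM without 4sU and 84.8 and 88.0 at 0 h (log2 fold change 2.17, SE 0.131, edgeR adjusted p = 6.09e-14). ASNS (asparagine synthetase) read 90.5 CPM without 4sU and 386 and 398 at 0 h, a rise of 4.33-fold. CHAC1, a glutathione-degrading enzyme, read 1.92 CPM without 4sU and 15.4 and 17.2 at 0 h. TRIB3, a pseudokinase inhibitor of ATF4, read 26.4 CPM without 4sU and 67.8 and 87.3 at 0 h. CEBPG, a partner of ATF4, read 16.8 CPM without 4sU and 69.2 and 63.9 at 0 h. For CHAC1, ASNS, SLC3A2, SLC7A11, ATF3, ATF5 and ADM2 the unlabelled counts alone exceeded the untreated library, which held for 7 of the 25 risers (30.3% of all higher coding genes). Not all members moved this way. DDIT3, the pro-apoptotic factor CHOP, read 41.4 CPM without 4sU and 46.0 and 49.1 at 0 h and did not pass (log2 fold change 0.20, SE 0.109, edgeR adjusted p = 0.115). It was called higher with spike-in sizes (edgeR adjusted p = 0.00021), coding genes alone (0.00315), a mean of at least 5 CPM (0.0262) and pseudogene counts added (0.0309). PCK2, which makes phosphoenolpyruvate in mitochondria, fell (46.8 CPM without 4sU and 14.4 and 15.3 at 0 h), as did PHGDH of serine synthesis (by 0.82), CBS of the transsulfuration pathway (by 1.61) and AARS1, the alanyl-tRNA synthetase (137 CPM without 4sU and 79.9 and 76.4 at 0 h).

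The promoter windows of this list are shown because several risers hold the letters of the element that ATF4 binds with C/EBP factors. In RefSeq promoters (GRCh38.p14, the first listed window of each symbol, 250 bases before to 50 after the start) the letters TGATGNAA were searched on both strands. They occurred in 6 of the 13 list members that rose at least 2-fold and had a window, in 1 of the 19 other tested members, in 1.59% of the windows of coding genes tested and in 3.67% of all 27305 windows. A match is a description of the letters, not a bound site. The list was made of genes of this pathway and the 2-fold cut was chosen after the values were seen, so these shares are no test. The matches of SLC3A2, NARS1 and SLC7A1 lie after the start (first base at 37, 14 and 7). Capitals mark the match, and each sequence is written 5′ to 3′ on the strand of its gene.
CHAC1 (chr15:40953252-40953279, plus strand): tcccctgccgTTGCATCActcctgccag
ASNS (chr7:97872459-97872486, minus strand): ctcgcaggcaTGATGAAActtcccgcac
SLC3A2 (chr11:62881726-62881748, plus strand): gcaggactccTTACATCAgctcc
ATF3 (chr1:212565206-212565233, plus strand): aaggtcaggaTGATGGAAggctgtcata
NARS1 (chr18:57621805-57621832, minus strand): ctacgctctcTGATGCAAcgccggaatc
SLC7A1 (chr13:29595664-29595691, minus strand): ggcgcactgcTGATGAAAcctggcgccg
AARS1 (chr16:70289676-70289703, minus strand): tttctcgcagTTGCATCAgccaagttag
The match in CHAC1, SLC3A2 and AARS1 lies on the opposite strand and so reads as the reverse complement. AARS1 is the member that carries the letters and fell (log2 fold change −0.81), while NARS1, the asparaginyl-tRNA synthetase, and SLC7A1, a carrier of basic amino acids, rose by 1.09 and 1.04.

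Redox genes split. NRF2 (NFE2L2) drives genes of glutathione and thioredoxin metabolism. Of 26 NRF2 and redox genes tested, 13 were higher and 9 lower, with a median log2 fold change of 0.34 (spike-in sizes: 16 higher, 2 lower, median 0.82). TXNRD1 (thioredoxin reductase) read 24.6 CPM without 4sU and 124 and 127 at 0 h (log2 fold change 2.35, SE 0.137, edgeR adjusted p = 3.02e-14), and after 12 h of chase 31.4 CPM ± 0.789 (SD, n = 2). GCLM, the regulatory subunit of glutathione synthesis, rose by 1.53, TXN (thioredoxin) by 1.49, NFE2L2 by 2.07 and its repressor BACH1 by 1.80. GPX4, which reduces lipid peroxides, went the other way (343 CPM without 4sU and 208 and 180.2 at 0 h), as did GSR, glutathione reductase (80.8 CPM without 4sU and 41.3 and 43.8 at 0 h), and PRDX1 fell by 0.55. The letters TGACNNNGC of the antioxidant response element, searched in the same way, occurred in 2 of 6 members that rose at least 2-fold, in 2 of 13 others and in 15.4% of the windows of coding genes tested. The 2 with a match that rose at least 2-fold were GCLM and TXNRD1, and ME1 (malic enzyme), just inside the other group, was also higher (log2 fold change 0.99). PGD, the other member with a match, was lower (log2 fold change −0.30, edgeR adjusted p = 0.00181). The upstream matches of GCLM, TXNRD1 and ME1 read:
GCLM (chr1:93909446-93909474, minus strand): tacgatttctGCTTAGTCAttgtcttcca
TXNRD1 (chr12:104215670-104215698, plus strand): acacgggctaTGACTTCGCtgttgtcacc
ME1 (chr6:83431170-83431198, minus strand): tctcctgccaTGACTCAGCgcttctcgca
Metal response genes also parted. MT2A, a metallothionein that binds zinc and copper, read 233 CPM without 4sU and 27.5 and 23.7 at 0 h (log2 fold change −3.18, SE 0.129, edgeR adjusted p = 1.73e-17) and was at 13.6 CPM ± 0.0991 (SD, n = 2) after 12 h of chase. SLC30A1, a zinc exporter, read 15.5 CPM without 4sU and 56.4 and 62.8 at 0 h. MTF1, the metal-sensing factor that drives both, read 11.4 CPM without 4sU and 34.5 and 44.2 at 0 h. Of the 8 tested members 3 were higher and 4 lower (spike-in sizes: 3 higher, 2 lower; side as a factor: 3 higher, 2 lower).

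Folding and heat shock genes had more members lower than higher, as had all coding genes (27.3% higher, 40.3% lower), and p53 targets were split. With spike-in sizes higher members outnumbered lower ones in all 3 lists. Of 25 folding genes of the endoplasmic reticulum tested, 6 were higher and 12 lower, with a median log2 fold change of −0.26 (spike-in sizes: 8 higher, 6 lower, median 0.22). SDF2L1 read 693 CPM without 4sU and 246 and 258 at 0 h. HYOU1, a chaperone of the endoplasmic reticulum, read 195 CPM without 4sU and 95.8 and 84.4 at 0 h, and HSPA5 (BiP) fell by 0.96, while DNAJB9 (5.88 CPM without 4sU and 22.3 and 21.2 at 0 h) and XBP1 (49.9 CPM without 4sU and 89.2 and 90.7 at 0 h), 2 targets of the IRE1 branch, rose. Of 25 cytosolic heat shock genes tested, 8 were higher and 14 lower, with a median log2 fold change of −0.25 (spike-in sizes: 12 higher, 6 lower, median 0.23; side as a factor: 5 higher, 13 lower). HSPB1 (HSP27) read 3702 CPM without 4sU and 1253 and 1109 at 0 h (log2 fold change −1.65, SE 0.0811, edgeR adjusted p = 9.68e-16), the collagen chaperone SERPINH1 read 222 CPM without 4sU and 32.0 and 32.3 at 0 h. HSP90AA1 read 2832 CPM without 4sU and 3953 and 3930 at 0 h. HSPA1A fell by 0.57 (spike-in sizes: −0.09, adjusted p = 0.514) and HSPA1B, a near-identical copy, rose by 0.45, so neither can be read alone. Of 24 p53 targets tested, 8 were higher and 7 lower, with a median log2 fold change of 0.13 (spike-in sizes: 14 higher, 5 lower, median 0.61; side as a factor: 7 higher, 4 lower). GADD45A read 21.4 CPM without 4sU and 96.2 and 106 at 0 h. PMAIP1 (NOXA) read 3.10 CPM without 4sU and 16 and 19.4 at 0 h, while TP53I3 read 24.5 CPM without 4sU and 3.76 and 2.63 at 0 h. CDKN1A (p21), the best known target, read 1.80 CPM without 4sU and 3.24 and 2.06 at 0 h and did not pass, but was higher with spike-in sizes (log2 fold change 1.04, edgeR adjusted p = 0.0283).

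Of 35 immediate early genes tested, 13 were higher and 13 lower, with a median log2 fold change of 0.37 (spike-in sizes: 14 higher, 7 lower, median 0.85). These genes answer growth factors and stress within minutes. KLF6 read 10.2 CPM without 4sU and 56.9 and 67.1 at 0 h. ATF3 read 2.66 CPM without 4sU and 17.2 and 25.5 at 0 h. MYC read 51.1 CPM without 4sU and 96.0 and 92.2 at 0 h (log2 fold change 0.88, SE 0.149, edgeR adjusted p = 1.06e-05). JUNB (94.3 CPM without 4sU and 18.8 and 19.1 at 0 h) and IER3 (112 CPM without 4sU and 24.9 and 25.2 at 0 h) fell. With the side as a factor the median of the list turned from 0.37 to −0.24.

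**Figure D2:**
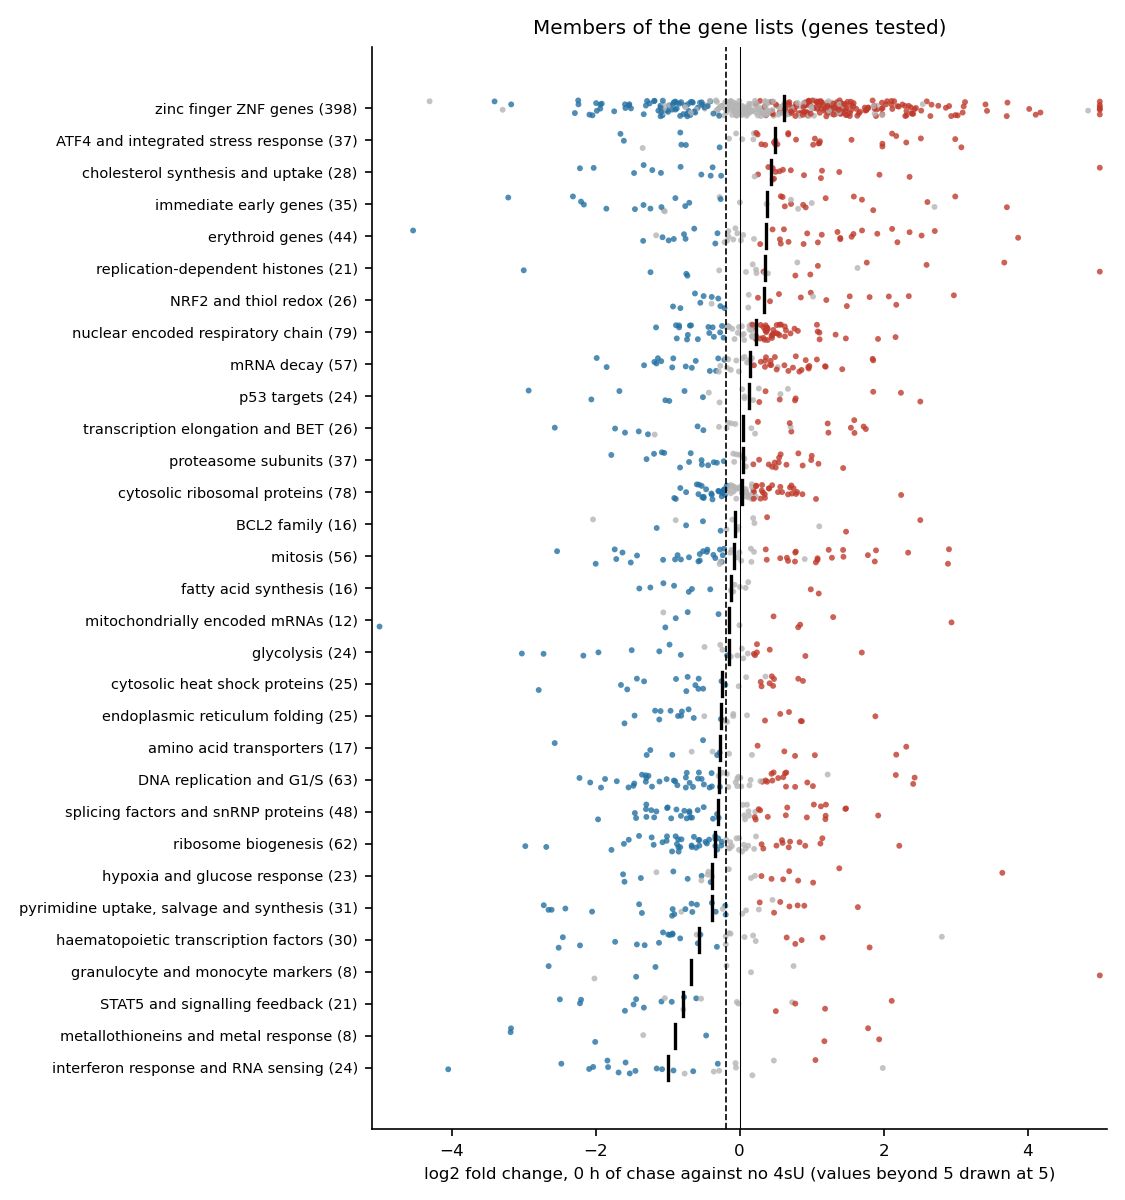
Each point is a tested member of a gene list with its log2 fold change, red if higher, blue if lower and grey if it did not pass the test. Black bars are list medians, the dashed line is the median of all coding genes (−0.19), the number of genes tested stands in brackets, and lists with fewer than 8 tested genes are not drawn; the stress response list sits at 0.50 and the interferon list at −1.0.

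Among erythroid genes the globins, the chains of haemoglobin, added most to the summed level. Of 44 erythroid genes tested, 23 were higher and 10 lower, with a median log2 fold change of 0.37 (spike-in sizes: 29 higher, 5 lower, median 0.85; side as a factor: 20 higher, 6 lower). HBG1 and HBG2, near-identical fetal globin genes, summed to 3316 CPM without 4sU and 11918 and 10674 CPM at 0 h, and HBA1 and HBA2 summed to 231 CPM against 1132 and 1034. All globins together read 4274 CPM without 4sU and 14367 and 12875 CPM at 0 h, a ratio of 3.19, and were still at 9195 and 8721 CPM after 12 h of chase. HBG2 alone read 1502 CPM without 4sU and 6864 and 6173 at 0 h (log2 fold change 2.12, SE 0.0931, edgeR adjusted p = 9.43e-17), and its unlabelled counts alone came to 4521 and 4154 CPM. The unlabelled counts exceeded the untreated library in 18 of the 23 risers (30.3% of all higher coding genes). The embryonic globins HBE1 (349 CPM without 4sU and 697 and 641 at 0 h) and HBZ (372 CPM without 4sU and 598 and 508 at 0 h) were among the 18. KEL, the Kell blood group protein, read 19.1 CPM without 4sU and 100.1 and 95.7 at 0 h. ERMAP, another red cell membrane protein, read 9.97 CPM without 4sU and 57.9 and 57.1 at 0 h. Some genes of iron uptake and haem synthesis were lower. TFRC, the transferrin receptor, read 316 CPM without 4sU and 165 and 171 at 0 h (log2 fold change −0.91, SE 0.0761, edgeR adjusted p = 4.44e-11), and ALAS2, the erythroid enzyme that begins haem synthesis, fell by 0.77, while UROS, a later enzyme of that pathway, rose by 0.61. EPB41, a membrane skeleton protein, read 304 CPM without 4sU and 118 and 122 at 0 h. EPX, eosinophil peroxidase, stands in this list although it is not an erythroid gene, and was among the 10 that fell.

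Transcription factors that set blood cell identity were mostly lower or did not pass. Of 30 haematopoietic factors tested, 5 were higher and 16 lower, with a median log2 fold change of −0.56 (spike-in sizes: 10 higher, 12 lower, median −0.09). GATA1, the erythroid master regulator, read 149 CPM without 4sU and 83.6 and 72.3 at 0 h (log2 fold change −0.93, SE 0.0926, edgeR adjusted p = 1.34e-09). MYB read 255 CPM without 4sU and 127 and 134 at 0 h (log2 fold change −0.97, SE 0.0809, edgeR adjusted p = 4.79e-11), and SPI1 (PU.1), a myeloid factor, read 23.4 CPM without 4sU and 4.60 and 3.54 at 0 h. KLF1 read 108 CPM without 4sU and 98.8 and 89.6 at 0 h and did not pass. BACH1, a haem-sensing repressor, rose (11.8 CPM without 4sU and 42.1 and 40.5 at 0 h), as did KLF3 (18 CPM without 4sU and 41.4 and 38.7 at 0 h). Of 21 STAT5 and signalling feedback genes tested, 4 were higher and 11 lower, with a median log2 fold change of −0.78 (spike-in sizes: 6 higher, 8 lower, median −0.30; side as a factor: 2 higher, 9 lower). BCR-ABL1 signals through STAT5, which drives PIM and SOCS family genes. STAT5A read 234 CPM without 4sU and 48.9 and 51.8 at 0 h (log2 fold change −2.22, SE 0.102, edgeR adjusted p = 2.16e-16). STAT5B read 27.6 CPM without 4sU and 50.5 and 43.6 at 0 h. ABL1, whose counts may include the fusion since reads come from 3′ ends, read 292 CPM without 4sU and 56.2 and 47.2 at 0 h (log2 fold change −2.5, SE 0.0894, edgeR adjusted p = 1.33e-18). PIM1, a survival kinase, read 362 CPM without 4sU and 109.6 and 130.3 at 0 h. SPRY4, a feedback inhibitor of growth factor signalling, was one of the 4 that rose (1.61 CPM without 4sU and 6.69 and 7.31 at 0 h).

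Genes of the interferon response, which foreign or modified RNA can set off, were not higher as a group. Of 24 interferon and RNA sensing genes tested, 1 was higher and 15 lower, with a median log2 fold change of −1.0 (spike-in sizes: 4 higher, 11 lower, median −0.52; side as a factor: 0 higher, 12 lower). A further 16 members were below the count filter, among them IFNB1, IFIT1, MX1 and RIGI. TRIM25, a ubiquitin ligase of RNA sensing, read 70.8 CPM without 4sU and 14.6 and 18.7 at 0 h, and the antiviral membrane protein IFITM2 read 433 CPM without 4sU and 143 and 127 at 0 h (log2 fold change −1.68, SE 0.0973, edgeR adjusted p = 2.68e-14). Together IFITM1, IFITM2 and IFITM3 summed to 1257 CPM without 4sU and 786 and 733 at 0 h (log2 ratio −0.73). This was a smaller fall than that of IFITM2, which should not be read alone. IRF9 was the single member higher (2.60 CPM without 4sU and 5.22 and 5.59 at 0 h), and it did not pass with the side as a factor (edgeR adjusted p = 0.127).

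Genes that take up and handle pyrimidine nucleosides, the route by which 4sU itself enters RNA, changed unequally. Of 31 pyrimidine genes tested, 7 were higher and 18 lower, with a median log2 fold change of −0.38 (spike-in sizes: 11 higher, 10 lower, median 0.09). With spike-in sizes the median of the list was above 0. SLC29A1 (ENT1), the main equilibrative nucleoside transporter, read 249.8 CPM without 4sU and 43.0 and 38.6 at 0 h, 6.11-fold lower at 0 h (log2 fold change −2.61, SE 0.0951, edgeR adjusted p = 1.79e-18), and SLC29A2 (ENT2) read 91.1 CPM without 4sU and 14.4 and 14.5 at 0 h (log2 fold change −2.65, SE 0.141, edgeR adjusted p = 4.74e-15). UCK2, the uridine-cytidine kinase that phosphorylates 4sU, read 99.9 CPM without 4sU and 319 and 303 at 0 h, 3.12-fold higher (log2 fold change 1.64, SE 0.0871, edgeR adjusted p = 4.65e-15), whereas its relatives UCKL1 (53.5 CPM without 4sU and 9.40 and 10.6 at 0 h) and UCK1 (lower by 0.38 on the log2 scale) fell. CAD, which begins pyrimidine synthesis, read 192 CPM without 4sU and 47.9 and 44.9 at 0 h, and UMPS, which ends it with UMP, fell by 1.40. NME1, a nucleoside diphosphate kinase, read 313 CPM without 4sU and 508 and 501 at 0 h. These opposite signs held under each alternative scaling for the genes named here except UCK1, whose spike-in value was 0.09. After 12 h of chase SLC29A1 was at 142.5 CPM ± 4.02 and UCK2 at 141.7 CPM ± 5.72 (SD, n = 2).

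Ribosome assembly factors were mostly lower under the scaling used here. Of 62 biogenesis genes tested, 12 were higher and 36 lower, with a median log2 fold change of −0.34 (spike-in sizes: 24 higher, 18 lower, median 0.14). With spike-in sizes the counts of higher and lower members changed places, so the direction of this list rests on the scaling. RRP9, a U3 snoRNP protein, read 65.3 CPM without 4sU and 9.51 and 10.8 at 0 h (log2 fold change −2.68, SE 0.146, edgeR adjusted p = 7.26e-15). NOP14, a small-subunit processome factor, read 359 CPM without 4sU and 113 and 95.6 at 0 h, and UTP20 fell by 2.98. POLR1B, the second largest subunit of RNA polymerase I, read 55.9 CPM without 4sU and 108 and 102 at 0 h, and the nucleolar GTPase GNL3L read 6.5 CPM without 4sU and 29.3 and 31.3 at 0 h. NPM1, the abundant nucleolar chaperone, read 3784 CPM without 4sU and 4216 and 4007 at 0 h and did not pass (edgeR adjusted p = 0.161). It was called higher with spike-in sizes (edgeR adjusted p = 2.79e-07), coding genes alone (0.00031), a mean of at least 5 CPM (0.0285) and pseudogene counts added (0.0149). Of 78 ribosomal protein genes tested, 27 were higher and 25 lower, with a median log2 fold change of 0.04 (spike-in sizes: 61 higher, 4 lower, median 0.51; side as a factor: 24 higher, 13 lower). Many of these genes have processed pseudogenes, which together rose from 25862 CPM without 4sU to 39552 and 37584 CPM at 0 h. With pseudogene counts added to their parents 44 ribosomal protein genes were higher and 12 lower (all coding genes: 30.2% higher, 37.9% lower, 68.1% in all), so the split between them is uncertain. RPL27 read 1751 CPM without 4sU and 983 and 884 at 0 h. RPL14 read 1457 CPM without 4sU and 2577 and 2486 at 0 h.

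Cell cycle genes moved in both directions. Of 63 replication and G1/S genes tested, 17 were higher and 32 lower, with a median log2 fold change of −0.29 (spike-in sizes: 27 higher, 18 lower, median 0.18). CDC45, part of the replicative helicase, read 118 CPM without 4sU and 27.1 and 29.1 at 0 h. CDK4 read 477 CPM without 4sU and 172 and 174 at 0 h (log2 fold change −1.46, SE 0.0792, edgeR adjusted p = 6.92e-15), and CCNE1 fell by 2.22 while CCNE2 rose by 2.41. CDK6 read 62.4 CPM without 4sU and 126 and 126 at 0 h. RRM2, the inducible ribonucleotide reductase subunit, read 208 CPM without 4sU and 220.1 and 206 at 0 h and did not pass. It was higher with spike-in sizes (log2 fold change 0.51, edgeR adjusted p = 0.000211) and with coding genes alone (0.21, 0.0294). Of 56 mitosis genes tested, 21 were higher and 24 lower, with a median log2 fold change of −0.07 (spike-in sizes: 30 higher, 9 lower, median 0.41). The mitotic kinase PLK1 read 1063 CPM without 4sU and 274 and 257 at 0 h (log2 fold change −2.0, SE 0.0788, edgeR adjusted p = 1.02e-17). CDC20, an activator of the anaphase-promoting complex, read 359.8 CPM without 4sU and 116 and 103 at 0 h, whereas CKS2, a cyclin-dependent kinase subunit, read 21.9 CPM without 4sU and 158 and 171 at 0 h. ARL6IP1 read 33.3 CPM without 4sU and 239 and 256 at 0 h (log2 fold change 2.89, SE 0.0985, edgeR adjusted p = 5.9e-19). Replication-dependent histone mRNAs carry no poly(A) tail as a rule, so oligo-dT libraries count them poorly, and 34 of 55 in the table were below the filter. Of the 21 tested, 8 were higher and 4 lower (spike-in sizes: 10 higher, 2 lower; side as a factor: 5 higher, 3 lower). H4C3, 1 of many near-identical H4 genes, read 5.51 CPM without 4sU and 65.4 and 75.7 at 0 h and stayed high after 12 h of chase (91.1 and 74.3 CPM).

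Nuclear genes of the respiratory chain leaned upward. Of 79 nuclear respiratory chain genes tested, 42 were higher and 17 lower, with a median log2 fold change of 0.23 (spike-in sizes: 62 higher, 5 lower, median 0.70). The unlabelled counts exceeded the untreated library in 23 of the 42 risers (30.3% of all higher coding genes). ATP5F1D, a subunit of ATP synthase, was only 4.29% labelled in replicate 1 and read 37.8 CPM without 4sU and 105 and 105 at 0 h (log2 fold change 1.47, SE 0.102, edgeR adjusted p = 9.67e-13). NDUFA12 of complex I read 108 CPM without 4sU and 247 and 220.3 at 0 h. UQCRC1, a core protein of complex III, read 415 CPM without 4sU and 195 and 176 at 0 h. Among the 12 mRNAs of mitochondrial DNA 5 were higher and 5 lower (spike-in sizes: 6 higher, 3 lower), or 6 and 2 with pseudogene counts added. MT-ND6, the only one made from the light strand, read 52.3 CPM without 4sU and 346 and 458 at 0 h (log2 fold change 2.94, SE 0.252, edgeR adjusted p = 7.4e-11), and with its pseudogene copies it went from 82.8 CPM to 682 and 867.

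Among genes of transcription and RNA processing, the zinc finger genes were the largest list. Of 398 ZNF genes tested, 172 were higher and 66 lower, with a median log2 fold change of 0.61 (spike-in sizes: 236 higher, 33 lower, median 1.09). ZNF24 read 109 CPM without 4sU and 320.4 and 353 at 0 h. ZNF562 read 18.8 CPM without 4sU and 68.8 and 70.7 at 0 h, while ZNF467 read 52.6 CPM without 4sU and 5.12 and 4.8 at 0 h. Of 26 elongation and BET genes tested, 10 were higher and 7 lower, with a median log2 fold change of 0.05 (spike-in sizes: 14 higher, 5 lower, median 0.53). The BET protein BRD2 read 264 CPM without 4sU and 762 and 778 at 0 h (log2 fold change 1.54, SE 0.0820, edgeR adjusted p = 4.66e-15). LARP7, which holds the elongation kinase P-TEFb in its inactive store, read 47.5 CPM without 4sU and 139 and 147 at 0 h. CCNT1 and CCNT2, the cyclins of that kinase, rose by 1.75 and 1.59, while POLR2A, the largest subunit of RNA polymerase II, read 199 CPM without 4sU and 60.2 and 59.7 at 0 h. SUPT6H read 162 CPM without 4sU and 56.3 and 51.0 at 0 h. Of 48 splicing genes tested, 16 were higher and 25 lower, with a median log2 fold change of −0.30 (spike-in sizes: 23 higher, 15 lower, median 0.18). SRSF11 (116 CPM without 4sU and 416 and 461 at 0 h) and SRSF10 (137 CPM without 4sU and 373 and 383 at 0 h) rose, and SF3A3 (252 CPM without 4sU and 98.8 and 85.1 at 0 h) and EFTUD2 (210.3 CPM without 4sU and 87.2 and 83.3 at 0 h), spliceosome core proteins, fell. Of 57 mRNA decay genes tested, 26 were higher and 16 lower, with a median log2 fold change of 0.15 (spike-in sizes: 34 higher, 9 lower, median 0.63). Subunits of the RNA exosome stood among the fallers (EXOSC5 −1.99, EXOSC7 −1.33, EXOSC10 −1.13, EXOSC4 −1.09), while EXOSC9 rose by 0.35, and CNOT4, a ubiquitin ligase of the CCR4-NOT complex, rose (26.8 CPM without 4sU and 90.2 and 102 at 0 h).

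Genes of lipid metabolism changed in both directions. Of 28 cholesterol genes tested, 16 were higher and 11 lower, with a median log2 fold change of 0.43 (spike-in sizes: 17 higher, 7 lower, median 0.91; side as a factor: 14 higher, 7 lower). MYLIP, a ubiquitin ligase, rose (14.5 CPM without 4sU and 55.9 and 55.5 at 0 h). FASN (fatty acid synthase) read 573 CPM without 4sU and 274 and 275 at 0 h. ACLY, which supplies its acetyl-CoA, read 298 CPM without 4sU and 134 and 118 at 0 h. Of 16 fatty acid synthesis genes tested, 2 were higher and 7 lower, with a median log2 fold change of −0.12 (spike-in sizes: 7 higher, 4 lower, median 0.36). Of 24 glycolysis genes tested, 7 were higher and 9 lower, with a median log2 fold change of −0.15 (spike-in sizes: 12 higher, 7 lower, median 0.33). Both counts lie near the shares of all coding genes (27.3% higher, 40.3% lower). Leaving out replicate 1 of 0 h lowered the number of glycolysis genes that were higher to 4. The glucose transporter SLC2A1 rose (88.1 CPM without 4sU and 293 and 277 at 0 h), and SLC2A3 (109 CPM without 4sU and 28.3 and 27.5 at 0 h) and the phosphofructokinase PFKP (198 CPM without 4sU and 26.6 and 33.6 at 0 h) fell. Of 23 hypoxia and glucose response genes tested, 8 were higher and 7 lower, with a median log2 fold change of −0.38 (spike-in sizes: 10 higher, 4 lower, median 0.09; side as a factor: 5 higher, 7 lower). ARRDC4, a glucose-responsive arrestin, read 0.929 CPM without 4sU and 10.6 and 13 at 0 h, while its relative TXNIP read 158 CPM without 4sU and 167 and 200.1 at 0 h and did not pass (edgeR adjusted p = 0.0552). TXNIP was called higher under 8 alternatives, with spike-in sizes by 0.69 (edgeR adjusted p = 8.23e-06) and without replicate 1 of 0 h by 0.32 (edgeR adjusted p = 0.00774).

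Of 37 proteasome subunits tested, 16 were higher and 14 lower, with a median log2 fold change of 0.05 (spike-in sizes: 23 higher, 5 lower, median 0.52). PSMD12 read 61.4 CPM without 4sU and 167 and 166 at 0 h. PSMC6 read 102 CPM without 4sU and 29.7 and 29.8 at 0 h. Of 17 amino acid transporter genes tested, 6 were higher and 7 lower, with a median log2 fold change of −0.28 (spike-in sizes: 8 higher, 4 lower, median 0.20). Beside the exchanger chains above, SLC25A22, a mitochondrial glutamate carrier, read 76.3 CPM without 4sU and 11.1 and 14.7 at 0 h. Of 16 BCL2 family genes tested, 3 were higher and 4 lower, with a median log2 fold change of −0.07 (spike-in sizes: 7 higher, 1 lower, median 0.41). BCL2L1 (BCL-XL), a survival protein of erythroid cells, read 105 CPM without 4sU and 49.1 and 45.3 at 0 h (log2 fold change −1.15, SE 0.101, edgeR adjusted p = 1.3e-10). MCL1 read 164 CPM without 4sU and 131 and 142 at 0 h (log2 fold change −0.26, SE 0.0934, edgeR adjusted p = 0.0153), and under spike-in sizes its sign turned (0.22, adjusted p = 0.137). Of genes often used as references, ACTB read 1096 CPM without 4sU and 2450.3 and 2266 at 0 h (log2 fold change 1.11, SE 0.0789, edgeR adjusted p = 1.99e-12). GAPDH read 2218 CPM without 4sU and 2709 and 2379 at 0 h (log2 fold change 0.20, SE 0.0850, edgeR adjusted p = 0.0435) and lost its call without replicate 1 of 0 h (adjusted p = 0.373), and EEF1A1 read 11747 CPM without 4sU and 12016 and 11399 at 0 h (log2 fold change −0.00, SE 0.0751, edgeR adjusted p = 0.959; higher by 0.47 with spike-in sizes).

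The same genes were followed through the chase. Of genes with a mean of at least 5 CPM over the 3 libraries, 1017 rose and 1897 fell at least 2-fold at 0 h, and their 0 h values are fixed by this choice. The median log2 ratio of the risers to the library without 4sU was 1.34 and 1.39 at 0 h. It came to 1.26 and 1.21 after 4 h of chase, and to 0.67 and 0.66 after 12 h. For the fallers it was −1.49 and −1.5 at 0 h, then −1.30 and −1.27 after 4 h, and −0.70 and −0.69 after 12 h. After 12 h 92.7 and 92.2% of the risers and 86.9 and 87.8% of the fallers were closer to the untreated library than the mean of 0 h was. All these ratios share the library without 4sU, and the spike-in side changes at 4 h, so neither the return nor its speed was tested. Single genes differed in their course: SLC3A2 was at 372 CPM ± 6.22 and ASNS at 238 ± 17.3 after 12 h (SD, n = 2), both above the untreated library, and STAT5A was at 131.6 ± 6.48, below it.

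**Figure D3:**
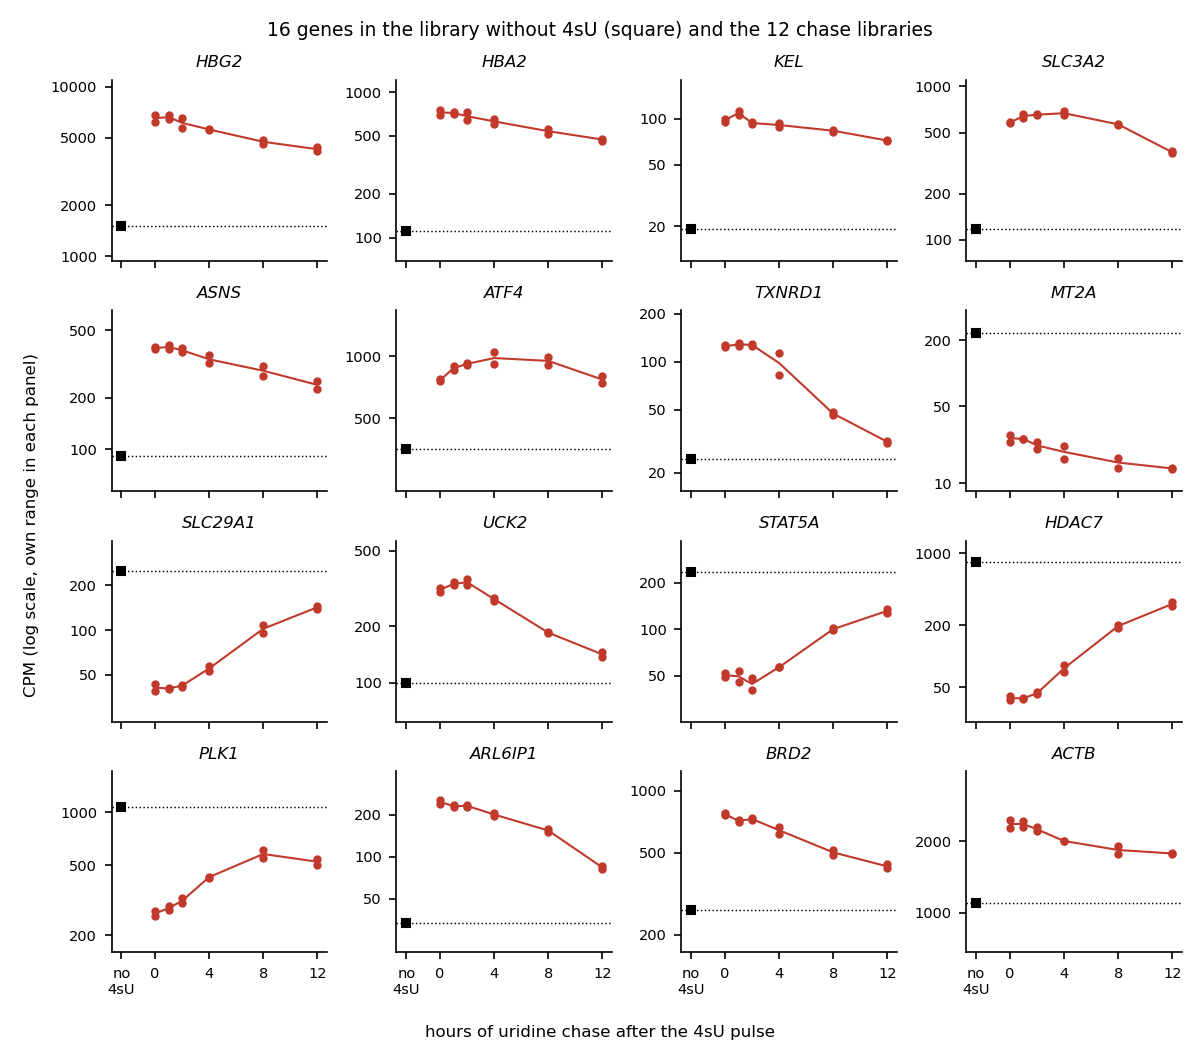
CPM (log scale, a range of its own in each panel) of 16 genes in the library without 4sU (black square and dotted line) and in each chase library (red points, with a line through the means) against hours of chase. HBG2 stays far above the square at every time, HDAC7 climbs from 37.4 and 41.2 CPM towards it, and MT2A stays below it.

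Coding genes were also sorted by 2 properties, as a description with no test. The labelled share divides by the total counts of the 1 h libraries, which were in the fit but not in the contrast. A gene that gained new RNA in the pulse can have both a higher share and a higher fold change. The labelled share is thus not independent of the fold change. In 5 equal groups by the labelled share at 1 h of chase, the median log2 fold change was −0.34, −0.41, −0.31, −0.07 and 0.23 from the least to the most labelled. Of the least labelled group 19.4% of genes were higher and 43.9% lower, and of the most labelled 41.5% were higher and 25.6% lower. By the T content of the last 250 bases of the longest coding transcript the medians were −0.42, −0.42, −0.21, −0.06 and 0.13 from the lowest to the highest. Within every group the fold changes spread far more widely than the medians differed, with quartiles from −1.17 to 0.31 in the least labelled and from −0.52 to 1.05 in the most labelled. With this side in the model the outer medians were −0.28 and 0.17 by labelled share, and −0.33 and 0.07 by T content.

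**Figure D4:**
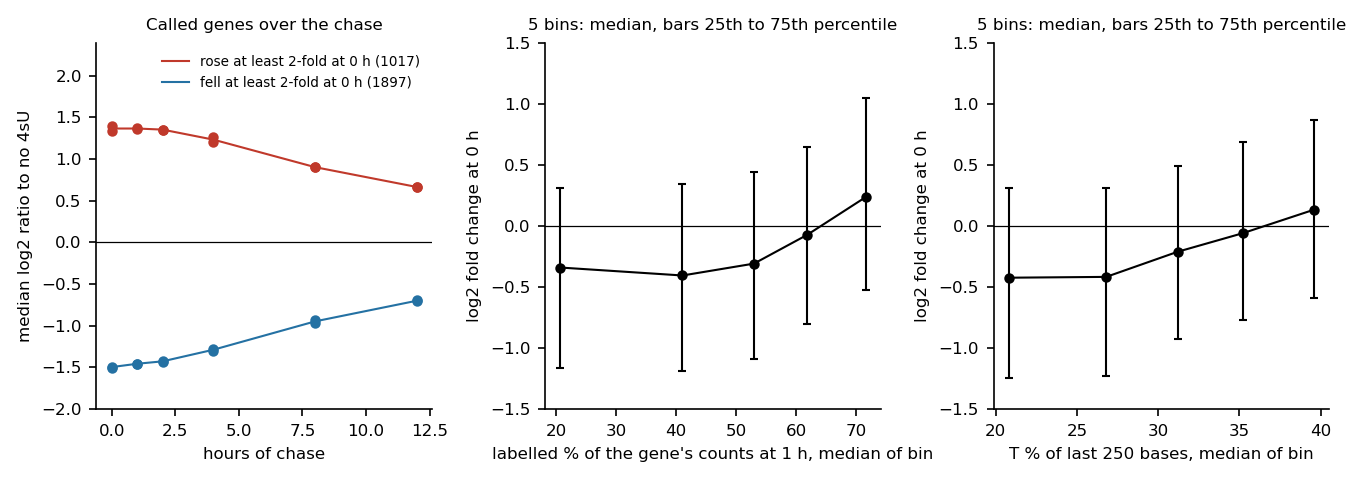
Left, the median log2 ratio to the library without 4sU in each chase library for the 1017 genes that rose (red) and the 1897 that fell (blue) at 0 h, moving from 1.34 and −1.49 toward 0. Centre and right, the median log2 fold change at 0 h in 5 equal groups of coding genes by labelled share at 1 h and by T content of the transcript's last 250 bases, with bars from the 25th to the 75th percentile; the medians end at 0.23 and 0.13.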

How the data were processed

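The authors deposited raw counts per human gene (all reads, and reads called nascent) and per Drosophila gene for 13 QuantSeq 3′ libraries. Tools listed in the submitters' processing notes are Trim Galore 0.6.5, bcl2fastq 2.17.1.14 and bedtools, with the hg38 build. For the aligner, counter, annotation, strand setting and nascent rule the sources used here give no name.

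Gene types, coordinates and 3′ ends came from GENCODE 29 (hg38) and promoter windows from RefSeq (GRCh38.p14). Total counts of all 16255 genes that passed filterByExpr were fitted in edgeR (version 4.0.16, under R 4.3.3) with its two-sided quasi-likelihood F-test (TMM, 7 groups, Benjamini-Hochberg over all genes, false discovery rate 0.05), and only coding genes are reported. Standard errors are the log2 fold change divided by the square root of F. Simulated counts of 15508 genes held 67 changes of 1.5-fold, 67 of 2-fold and 66 of 4-fold. The fit recovered 64.2, 83.6 and 100% of these, with 5 false calls among 170. Recovery and false calls with changes in most genes, as found here, were not tested. Intervals and floors cover counting error only, as no use of molecular identifiers is stated. A count of 0 allows up to 1.72e-05% of the library without 4sU and up to 3.33e-05% of the shallower library of 0 h. Replicates of 0 h differed by more than sampling noise (chi-square per degree of freedom 2.95).

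Named genes were the 12 largest rises and falls with a mean of at least 5 CPM, the 2 smallest p-values in each direction of each of 33 gene lists, and a set of well-known genes. Others were chosen after their values were seen. A few genes that this rule names are not reported here. Members and lists were chosen with earlier results of these data known. Alternatives were other size factors, DESeq2 1.42.0, spike-in sizes, other filters, fewer libraries or genes, the spike-in side, a replicate block and each 0 h library left out. Adding pseudogene counts to parent genes was chosen after seeing the data. Other computing used Python 3.11.15, numpy 2.4.6, pandas 2.3.3, scipy 1.17.1 and matplotlib 3.10.9.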

Additional observations from a re-analysis of the deposited data

How the results depend on the processing

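With spike-in totals as library sizes 4761 genes were higher and 2663 lower. The other alternatives gave between 2449 and 3843 higher genes and between 3541 and 4750 lower genes, with DESeq2 at 2769 and 4216 and coding genes alone at 3843 and 4009 (48.9% of calls toward higher). Leaving out either replicate of 0 h gave 2848 to 2879 higher and 4271 to 4341 lower. Replicate numbers do not pair these samples (15 pairs of deviations, correlations −0.15 to 0.39, 3 over 0.1), and with the replicate number as a block 3178 genes were higher and 4696 lower. Among named genes signs turned for MCL1 (0.22) and EEF1A1 (0.47) with spike-in sizes, for EEF1A1 with coding genes alone (0.17) and for MT-CO1 with pseudogenes added (0.79). The causes were not tested. MT1G, IRF9, TUBB1, GP6, H3C4 and BCL2L2 lost their call once the spike-in side was a factor. With spike-in sizes GP6, CD3D, BCL2L12 and HSPA1A lost it, and DDIT3, CDKN1A, NPM1, RRM2 and TXNIP gained one. DDIT3, NPM1 and TXNIP also gained a call with coding genes alone, a mean of at least 5 CPM and pseudogene counts added, and RRM2 with coding genes alone. GAPDH lost its call with other size factors (RLE), with 3 libraries only and with DESeq2, and MT1G lost it with DESeq2. MCL1 lost it with a mean of at least 5 CPM, coding genes alone and pseudogene counts added, and MT-ND2 with pseudogene counts added. ELANE and GP6 lost it without replicate 2 of 0 h (edgeR adjusted p = 0.444 and 0.205), and MCL1 and GAPDH without replicate 1 (0.0971 and 0.373). The difference in median log2 fold change between the most and the least labelled groups of genes was 0.58 and went to 0.53 with raw CPM ratios, 0.37 for genes of at least 20 CPM and 0.56 to 0.62 with a replicate of 0 h left out. By T content it was 0.56, against 0.69 for the last 500 bases, 0.46 for genes of at least 20 CPM and 0.51 to 0.58 with a replicate left out. The single library without 4sU limits every value: it could not be left out.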

Other observations

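Outside the coding genes the 3 libraries also differed. RPL38P3, a processed pseudogene of a ribosomal protein gene, read 0.929 CPM without 4sU and 186 and 170.1 CPM at 0 h, and RPS2P55 read 1.61 CPM against 135.7 and 112. RPS19P7 went the other way, from 587 CPM to 76.7 and 66.7. The mitochondrial phenylalanine tRNA MT-TF read 11170 CPM without 4sU, 41990 and 45801 CPM at 0 h, and 26693 and 27675 CPM after 12 h of chase, and the asparagine tRNA MT-TN went from 52.3 CPM to 1167 and 1278. MALAT1, a nuclear long non-coding RNA, read 812 CPM without 4sU and 2134 and 3110 CPM at 0 h.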
